A study of Mus musculus with 6 samples.

Results

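Endothelial cells line every vessel of the kidney, and the 38 genes described here belong to their biology: vascular growth factors and their receptors, junction proteins, transcription factors, capillary and arterial markers, and adhesion molecules for white blood cells. The members are a named list, matched by symbol to 38 of the 32285 gene rows of the deposited count table. All 38 were among the 15955 genes that passed the filter on low counts. RNA came from the kidneys of 6 female mice aged 100 weeks, all with a mutation in the mitochondrial tRNA gene TrnE, which serves glutamate. Controls 1 to 3 had a low mutation load, with 10%, 5% and 15% of mitochondrial DNA copies mutated, and high-load 1 to 3 had 75%, 75% and 80%. All 6 animals thus carried the mutation, and no kidney free of it is in the comparison. The strain, the base change in TrnE and the tissue in which load was measured were not stated in the labels. Values are CPM, that is read counts corrected for depth and composition with TMM factors, and errors are SD over the 3 kidneys of a group. Where 3 values are given for a group they are in the order of kidneys 1, 2 and 3, and a fold change sets high load against control.

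The kidney holds several endothelia. Glomerular endothelium is a fenestrated capillary that filters plasma and depends on VEGF from podocytes, peritubular capillaries take up what the tubules reabsorb, and arterial endothelium is joined by connexins. VEGF receptors drive growth and survival of these cells, while the angiopoietin receptor TIE2, encoded by Tek, keeps mature vessels quiet and tight. Inflamed endothelium displays selectins and ICAM1, which slow and hold passing leukocytes.

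No member passed an adjusted p of 0.05 in edgeR's quasi-likelihood test over all genes, and the same test called 0.0188% of all tested genes higher and 0.0% lower. At an unadjusted p under 0.05, 7 of 38 members were lower (Flt1, Tek, Angpt2, Ptprb, Esam, Erg and Mmrn2), or 18.4%, against 10.2% of all tested genes. One member, Selp, was higher, or 2.63%, against 14.0% of all tested genes. DESeq2 called 1 member, Tek, lower and 0 higher at an adjusted p under 0.05, where it called 3.88% of all genes lower and 6.67% higher. Limma-voom called 0 members after adjustment. Before it, limma-voom had 6 lower (15.8%, against 10.7% of all tested genes) and 1 higher (2.63%, against 13.0%). The median log2 fold change was -0.16 over the members and 0.00675 over all tested genes. Of the 38 fold changes, 29 lay below 1, where 7826 of all 15955 tested genes did. With libraries scaled by their totals alone 22 of the 38 did, a scaling that moves the median of all genes up by 0.12. In bulk tissue, fewer endothelial cells and less of an mRNA per endothelial cell cannot be told apart.

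The high-load kidneys were not alike. High-load 2 had the highest level of the high-load group for 29 of 38 members, high-load 1 for 8 and high-load 3 for 1. High-load 1 lay below every control for 20 members (52.6%, against 37.3% of all tested genes) and high-load 3 for 24 (63.2%, against 31.6%). High-load 2 lay below every control for 11 (28.9%, against 29.1%). Above every control were 7 members in high-load 1, 13 in high-load 2 and 1 in high-load 3, against 38.9%, 29.9% and 34.6% of all tested genes. Without high-load 2, edgeR called 6 members lower (Flt1, Tek, Tie1, Ptprb, Esam and Plvap) and 1 higher (Selp) at an adjusted p under 0.05, where it called 1.62% of all tested genes lower and 3.34% higher. High-load 2 was set apart by the levels of these same members, so the calls without it describe the split and are no support for a change. The count of 7 lower at an unadjusted p depended on the libraries. It was 14 of 38 without high-load 2, where 13.2% of all tested genes were lower, 2 without high-load 1 (8.09%) and 1 without high-load 3 (6.15%). Without controls 1, 2 and 3 in turn it was 2, 5 and 1, beside 7.1%, 6.25% and 6.88% of all tested genes. With library totals alone it was 1, beside 6.31%. Summed over the 38 members, levels were 1558, 1373 and 1755 CPM in controls against 1123, 1636 and 1137 CPM at high load, so the groups overlapped.

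**Figure D1:**
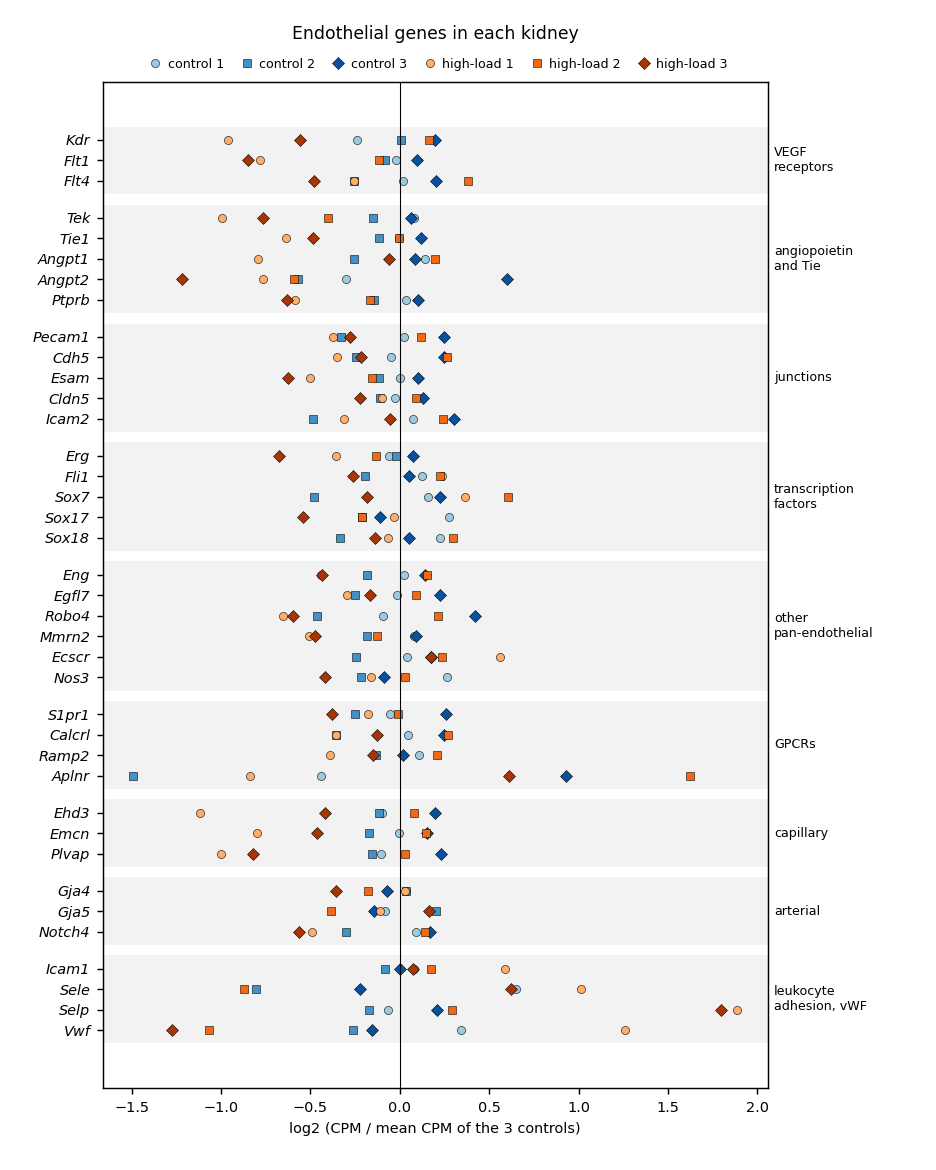
Each row is an endothelial gene and each point a kidney, on the x axis as log2 of its CPM over the mean of the 3 controls; blue symbols are controls and orange symbols high-load kidneys, with genes grouped by role. High-load 2 (orange squares) sits highest of the high-load kidneys for 29 of 38 genes, and Selp is the only gene with all 3 high-load kidneys above every control.

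Markers of other cells set some kidneys apart. Summed proximal tubule markers (8 of 8 tested, 8 with a fold change below 1) were at 12369.6 to 13987 CPM in controls against 3602 to 10308 CPM at high load, lowest in high-load 1. Summed leukocyte markers (9 of 9 tested, 8 above 1) were at 196 to 296 CPM in controls against 359 to 572 CPM at high load, highest in high-load 1. Summed tubule injury markers (6 of 6 tested, 6 above 1) were at 2559.5 to 3806 CPM in controls against 5561 to 11310.4 CPM at high load. Red blood cell markers (5 of 5 tested) summed to 2002 CPM in control 2 and to 81.7 to 330.4 CPM in the other 5 kidneys. Of 10 pericyte, mesangial and smooth muscle markers, 2 were higher at an unadjusted p under 0.05 (Gata3 and Acta2) and 0 lower. At the same threshold, of 3 tested lymphatic genes 2 were higher (Pdpn and Lyve1) and 1 lower (Prox1). Gata3, Pdpn, Lyve1 and Prox1 are not specific to these cells in kidney, so the counts name no cell type that changed. Lyve1 had 7, 2 and 9 control reads against 49, 19 and 11 at high load, so it passed the filter on low counts only through the group where it is high. None of these markers was at 0 in every library. Their part in the endothelial values was not tested.

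Promoter sequences of 4 members are shown: the receptors Flt1 and Tek, and the adhesion genes Selp and Icam1, since these genes stand for the lower and the higher side of the list in the values that follow. They are the 250 bases before each RefSeq start site (GRCm38.p6, the assembly of mm10), 5′ to 3′ on the gene's strand. Capitals mark AGGAAG on either strand in Flt1 and Selp. It is a longer form of the GGAA core bound by ETS factors such as the members Erg and Fli1. In Icam1 they mark GGAANTTCC, a palindromic form of the NF-kappaB element. The shorter GGAA was neither marked nor counted, and it also occurs in Tek and Icam1. Tek holds neither.
Flt1 promoter, chr5:147726012-147726261, minus strand: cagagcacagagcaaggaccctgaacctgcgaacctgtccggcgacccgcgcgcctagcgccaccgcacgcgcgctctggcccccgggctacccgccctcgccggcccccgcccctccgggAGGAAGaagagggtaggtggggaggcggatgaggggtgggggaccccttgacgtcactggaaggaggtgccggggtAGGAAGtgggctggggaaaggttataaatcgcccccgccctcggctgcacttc
Tek promoter, chr4:94739039-94739288, plus strand: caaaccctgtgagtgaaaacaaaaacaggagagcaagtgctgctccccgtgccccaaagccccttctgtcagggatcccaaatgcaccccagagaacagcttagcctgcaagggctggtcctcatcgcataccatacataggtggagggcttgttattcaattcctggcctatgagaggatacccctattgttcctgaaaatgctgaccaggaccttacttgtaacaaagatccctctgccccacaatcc
Selp promoter, chr1:164115014-164115263, plus strand: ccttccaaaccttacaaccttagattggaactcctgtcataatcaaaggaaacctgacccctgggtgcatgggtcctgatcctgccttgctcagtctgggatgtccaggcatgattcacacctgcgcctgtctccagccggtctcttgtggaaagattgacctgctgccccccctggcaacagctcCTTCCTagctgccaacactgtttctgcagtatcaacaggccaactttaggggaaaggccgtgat
Icam1 promoter, chr9:21015690-21015939, plus strand: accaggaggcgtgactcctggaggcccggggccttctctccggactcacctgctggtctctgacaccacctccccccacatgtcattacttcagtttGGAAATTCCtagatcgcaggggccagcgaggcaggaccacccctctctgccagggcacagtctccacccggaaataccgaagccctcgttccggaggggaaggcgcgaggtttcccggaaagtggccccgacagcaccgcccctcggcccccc

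Flt1 held AGGAAG at 2 places, at positions -129 and -53 counted from the start, Selp held it once, at -64, and Tek had no match in this window. RefSeq promoters were matched for 19 of the 38 members, and 11 of the 19 held AGGAAG, against 29.5% of 32851 promoters of the same length. GGAANTTCC occurred in 1 of the 19, Icam1, at position -153, and in 0.813% of all promoters. The RefSeq start is that of GENCODE M21 for Flt1, Tek and Selp and lies 45 bases from it for Icam1. It lies 127709 bases away for Gja5 and 1069 for Egfl7, both among the 11, and at most 707 for the other 17. A match is a run of letters and was not tested for binding.

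Among the VEGF receptors, Flt1, which encodes VEGFR1, a high-affinity and weakly signalling receptor, had the lowest fold change (ENSMUSG00000029648, chromosome 5, 147561604 to 147726011, minus strand, mm10). It was at 75.1, 71.9 and 81.5 CPM in controls against 44.3, 70.3 and 42.4 CPM at high load. All 3 high-load kidneys were below all 3 controls, high-load 2 by a small margin (log2 fold change -0.54, SE 0.20, 95% interval -1.02 to -0.063, edgeR adjusted p 0.173). Kdr, encoding VEGFR2, the main signalling receptor, was at 59.1, 70.1 and 79.8 CPM in controls against 35.8, 77.9 and 47.4 CPM at high load. High-load 2 lay among the controls and the other two below them (log2 fold change -0.38, 95% interval -1.05 to 0.30). Flt4, the VEGF-C receptor of lymphatic and some capillary endothelium, was at 20.5 ± 3.21 CPM in controls against 19.5 ± 6.31 CPM at high load, with a 95% interval of -0.65 to 0.50 on the log2 scale and an estimate above 0 with library totals alone (0.038). Of 7 VEGF ligands and coreceptors, 7 were tested and 0 passed even an unadjusted p of 0.05. Vegfa, the podocyte and tubule ligand, was at 335 ± 21.4 CPM in controls against 302 ± 60.2 CPM at high load.

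The angiopoietin and Tie system had 5 of 5 fold changes below 1, with a median of -0.45 on the log2 scale, and 0 passed the adjusted test in edgeR. Tek (ENSMUSG00000006386, chromosome 4, 94739289 to 94874976, plus strand) was at 55.9, 47.7 and 55.2 CPM in controls against 26.6, 40.1 and 31.1 CPM at high load. Every high-load kidney was below every control, with high-load 2 again nearest to them. The log2 fold change was -0.70 (SE 0.16, 95% interval -1.08 to -0.32), with an edgeR adjusted p of 0.102 and a DESeq2 adjusted p of 0.00661. With any 1 kidney left out it was -0.87 to -0.57. Ptprb, encoding the phosphatase VE-PTP that dephosphorylates TIE2, was at 84.5, 74.8 and 88.5 CPM in controls against 55.0, 73.7 and 53.4 CPM at high load, with groups that did not overlap (log2 fold change -0.45, SE 0.14, edgeR adjusted p 0.147). Tie1, the orphan partner of TIE2, was at 65.2, 60.4 and 71.0 CPM in controls against 42.1, 65.3 and 46.8 CPM at high load, where high-load 2 lay among the controls (edgeR adjusted p 0.255).

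The 2 ligands differed in their pattern, a difference that was not tested. Angpt2, a context-dependent antagonist of TIE2, was at 15.1, 12.6 and 28.3 CPM in controls against 10.96, 12.4 and 8.02 CPM at high load. The groups did not overlap, but control 3 stood far above the other controls, and the log2 fold change of -0.84 (SE 0.33, edgeR adjusted p 0.191) was -0.41 without control 3. Angpt1, the TIE2 agonist made by cells around vessels and not by endothelium, was at 13.9, 10.6 and 13.4 CPM in controls against 7.28, 14.5 and 12.1 CPM at high load. Only high-load 1 lay below the controls, and without it the estimate was 0.078 in place of -0.16. Exons of Angpt1 overlap Gm17473 on the opposite strand, and the strand setting of the counting is not known here.

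**Figure D2:**
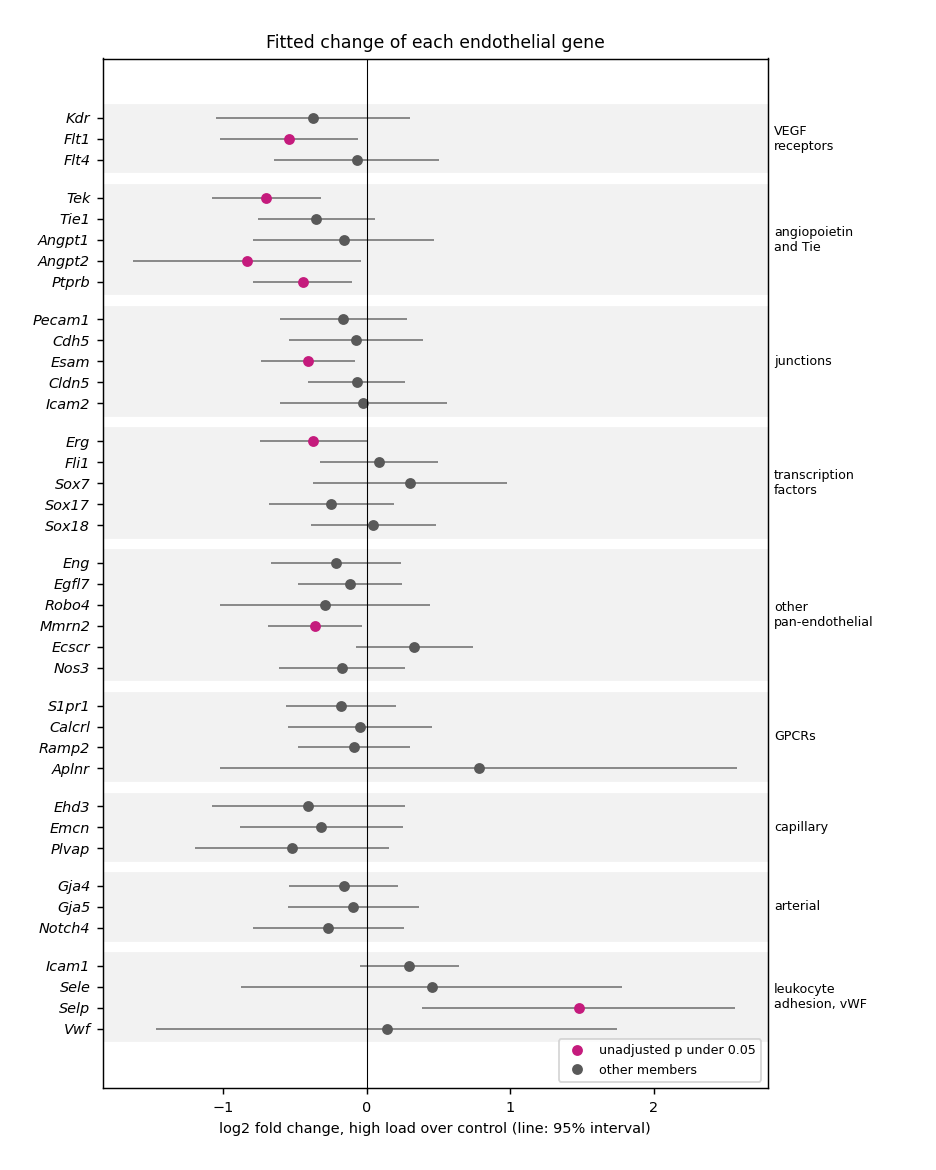
Points are fitted log2 fold changes of high load over control for the 38 genes and lines their 95% intervals, from the quasi-likelihood fit over all genes; coloured points have an unadjusted p under 0.05. Tek at -0.70 and Selp at 1.48 have the intervals farthest from 0 on either side, and the interval of Erg ends next to 0.

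Among the junction proteins, 5 of 5 fold changes lay below 1 and 1, Esam, had an unadjusted p under 0.05. Pecam1, the CD31 adhesion molecule, was at 90.8, 71.2 and 106 CPM in controls against 69.0, 96.9 and 73.6 CPM at high load, and Cdh5, encoding VE-cadherin, at 44.1, 38.5 and 54.1 CPM in controls against 35.7, 54.7 and 39.2 CPM at high load. In both, the groups overlapped and high-load 2 was above the control mean. The 95% intervals on the log2 scale were -0.61 to 0.28 for Pecam1 and -0.54 to 0.39 for Cdh5, whose estimate was above 0 with library totals alone. Esam, an adhesion molecule of endothelial tight junctions, was at 49.9, 45.9 and 53.4 CPM in controls against 35.2, 44.7 and 32.3 CPM at high load. Its groups did not overlap (log2 fold change -0.41, SE 0.14, edgeR adjusted p 0.152). Cldn5, the endothelial claudin, was at 11.6 ± 0.990 CPM in controls against 11.1 ± 1.22 CPM at high load, and Icam2, a constitutive leukocyte ligand, at 10.5 ± 2.76 CPM in controls against 10.3 ± 1.99 CPM at high load. Both estimates were within 0.08 of 0 on the log2 scale and above 0 with library totals alone.

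Of the transcription factors, Erg, an ETS factor that maintains endothelial identity, was at 16.9, 17.4 and 18.6 CPM in controls against 13.8, 16.1 and 11.02 CPM at high load. Its groups did not overlap and its log2 fold change was -0.37 (SE 0.16, edgeR adjusted p 0.206). Fli1, the related ETS factor that blood cells also express, was at 14.6 ± 1.65 CPM in controls against 15.4 ± 2.85 CPM at high load. The 3 SOXF genes of vascular development had fold changes on both sides of 1. Sox7 was at 5.17 ± 1.28 CPM in controls against 6.37 ± 1.67 CPM at high load, Sox17, an arterial factor, with exons that overlap Gm37587, at 21.6 ± 3.98 CPM in controls against 18.2 ± 3.16 CPM at high load, and Sox18 at 19.8 ± 3.78 CPM in controls against 20.4 ± 3.43 CPM at high load. Their 95% intervals all include 0, -0.38 to 0.97, -0.68 to 0.19 and -0.39 to 0.48. The estimates of Fli1 and Sox18 went below 0 without control 2, to -0.00654 and -0.10.

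Groups overlapped for all 6 other surface and secreted proteins. Eng, the TGF-beta coreceptor endoglin, whose exons overlap Fpgs on the opposite strand, was at 190.3 ± 21.2 CPM in controls against 164 ± 41.0 CPM at high load. Egfl7, a secreted vascular protein whose exons overlap Mir126a, Gm20532 and, on the opposite strand, Agpat2 and Mir126b, was at 69.0 ± 11.3 CPM in controls against 63.6 ± 8.74 CPM at high load. Robo4, a receptor that stabilises vessels, was at 32.8 ± 10.2 CPM in controls against 26.8 ± 9.66 CPM at high load. Nos3, the endothelial nitric oxide synthase, was at 12.7 ± 2.25 CPM in controls against 11.3 ± 1.73 CPM at high load, with exons that overlap Atg9b and Gm15587. Mmrn2, a matrix protein of vessels, was at 33.4 ± 3.48 CPM in controls against 26.0 ± 3.93 CPM at high load (log2 fold change -0.36, SE 0.14, edgeR adjusted p 0.177). Ecscr, a regulator of endothelial migration whose exons overlap 1700066B19Rik on the opposite strand, was on the other side, at 10.4 ± 1.50 CPM in controls against 13.1 ± 1.95 CPM at high load (0.33, SE 0.17, edgeR adjusted p 0.278). Among 14 other pan-endothelial genes outside the list, 6 fold changes were above 1 and 8 below, and 0 higher and 2 lower ones passed an unadjusted p of 0.05 (Clec14a and Sox13).

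The receptor for adrenomedullin, a vasodilator peptide, is built from Calcrl and Ramp2. Calcrl was at 25.5 ± 5.23 CPM in controls against 24.6 ± 5.54 CPM at high load and Ramp2, whose exons overlap Vps25 on the same strand, at 24.1 ± 2.02 CPM in controls against 22.7 ± 4.81 CPM at high load. S1pr1, the sphingosine 1-phosphate receptor that tightens the endothelial barrier, was at 24.4 ± 4.41 CPM in controls against 21.5 ± 2.75 CPM at high load. None of the 3 had an unadjusted p under 0.05, and the estimates of Calcrl and Ramp2 were above 0 with library totals alone. Aplnr, the apelin receptor of veins and sprouting capillaries, varied widely within both groups, at 6.55, 3.16 and 16.9 CPM in controls against 4.96, 27.4 and 13.6 CPM at high load. Its log2 fold change of 0.78 had a 95% interval of -1.03 to 2.58.

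Capillary markers followed the same split of the high-load kidneys. Ehd3, an endocytic protein restricted in kidney to glomerular endothelium, was at 43.0, 42.6 and 53.0 CPM in controls against 21.3, 48.8 and 34.5 CPM at high load. Emcn, a sialomucin of capillaries and veins, was at 92.8, 82.6 and 103 CPM in controls against 53.4, 103 and 67.4 CPM at high load. Plvap, which forms the diaphragms of peritubular capillary fenestrae, was at 186, 179 and 235 CPM in controls against 100.0, 204 and 113 CPM at high load. In all 3 genes high-load 2 lay among the controls and the other two high-load kidneys below them, and 0 passed an unadjusted p of 0.05 (95% intervals -1.08 to 0.27, -0.89 to 0.25 and -1.20 to 0.15). With any 1 kidney left out, Plvap was at -0.91 to -0.33 on the log2 scale, lowest without high-load 2. In high-load 1 the glomerular podocytes were low as well: the 8 podocyte markers summed to 345 CPM there and to 647 to 804 CPM in the other 5 kidneys. The part of glomerular content in these values was not tested. Of 6 further glomerular endothelial genes, 0 were higher and 2 lower at an unadjusted p under 0.05: Igfbp5, an IGF-binding protein, at 585 ± 136 CPM in controls against 279.6 ± 123 CPM at high load (edgeR adjusted p 0.142, DESeq2 adjusted p 0.0158), and Plat, tissue plasminogen activator, at 87.2 ± 8.64 CPM in controls against 65.7 ± 14.7 CPM at high load. Of 6 tested peritubular and venous genes, 1 was higher, Vcam1, and 0 were lower.

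Of the arterial markers, 3 of 3 had fold changes below 1 and 0 an unadjusted p under 0.05. Gja4, encoding connexin 37, was at 8.71, 8.69 and 8.06 CPM in controls against 8.65, 7.49 and 6.62 CPM at high load, and Gja5, encoding connexin 40, whose exons overlap Gpr89, at 8.99, 10.9 and 8.61 CPM in controls against 8.79, 7.27 and 10.6 CPM at high load. Notch4, a Notch receptor of endothelium, was at 34.2, 26.0 and 36.1 CPM in controls against 22.8, 35.4 and 21.7 CPM at high load, with high-load 1 and 3 below every control and high-load 2 among them. The groups overlapped in all 3, and the log2 fold changes of -0.16, -0.10 and -0.27 had 95% intervals of -0.54 to 0.22, -0.55 to 0.36 and -0.80 to 0.26. The estimate of Gja5 was above 0 with library totals alone. Of 9 further arterial genes, 1 was higher at an unadjusted p under 0.05, Edn1, and 1 lower, the chemokine gene Cxcl12. Edn1, encoding the vasoconstrictor endothelin 1, which tubule cells also make, was at 7.10, 6.93 and 7.52 CPM in controls against 31.0, 11.1 and 26.2 CPM at high load, with groups that did not overlap (edgeR adjusted p 0.0992, DESeq2 adjusted p 0.000529).

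The pan-endothelial score is the mean log2 CPM of 15 members, Pecam1, Cdh5, Tie1, Tek, Egfl7, Esam, Robo4, Cldn5, Eng, Ptprb, Erg, Mmrn2, Ramp2, Ecscr and Icam2. It was 5.26, 5.03 and 5.41 in controls against 4.85, 5.29 and 4.87 at high load, a difference of -0.23 with a pooled SD within groups of 0.22. The groups overlapped, since high-load 2 was second of the 6 kidneys. The glomerular score (Ehd3, Emcn and Kdr) minus the pan-endothelial score was 0.69, 0.94 and 0.84 in controls against 0.26, 0.91 and 0.72 at high load. Its difference of -0.20 came mostly from high-load 1, without which it was -0.0128. The arterial score (Gja4, Gja5, Sox17 and Notch4) minus the pan-endothelial score was -1.22, -1.15 and -1.49 in controls against -1.05, -1.49 and -1.24 at high load, a difference of 0.0294 that changed sign without high-load 1 or control 3. Both differences between the groups were smaller than the pooled SD within groups, 0.25 for the glomerular and 0.20 for the arterial score. Emcn and Kdr are not restricted to glomeruli, nor Notch4 to arteries, so these scores do not isolate glomerular or arterial endothelium.

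**Figure D3:**
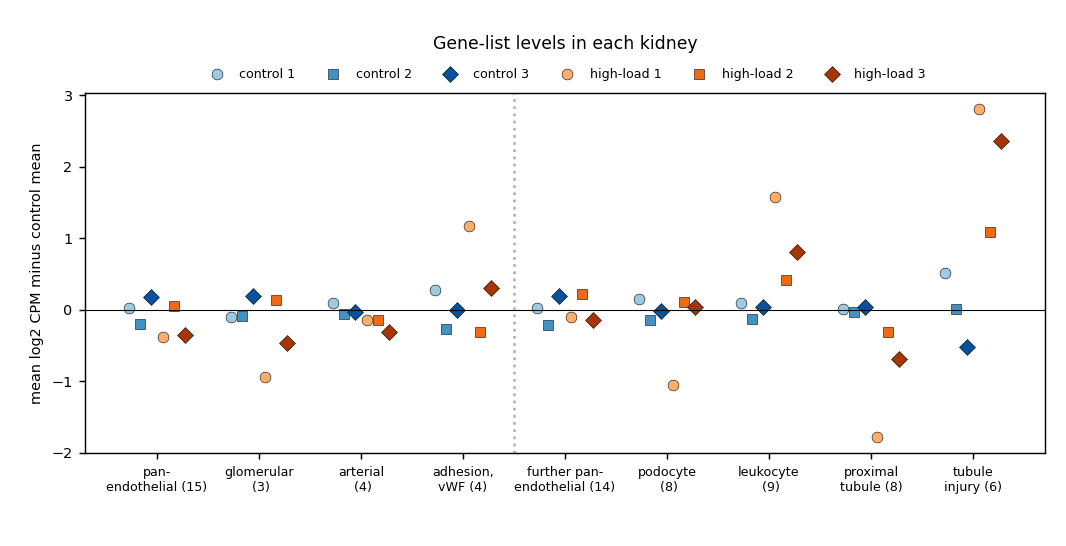
Each point is a kidney's mean log2 CPM over a gene list minus the mean of the 3 controls, with the number of genes in brackets; lists left of the dotted line are members and those right of it are not. The pan-endothelial scores of the groups overlap, the glomerular score is lowest in high-load 1, and leukocyte, proximal tubule and tubule injury lists separate the groups.

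Relative to the pan-endothelial score, which takes out the scaling between libraries, 7 members were lower in all 3 high-load kidneys than in any control (18.4%, against 3.83% of all tested genes) and 6 were higher (15.8%, against 16.6%). In plain CPM the groups did not overlap for 6 lower members (15.8%, against 15.8%) and 1 higher (2.63%, against 17.1%). The score is built from members and was itself lower at high load, by 0.23 on the log2 scale. Subtracting it shifts every gene upward at high load, so the 3.83% is no like background. The contrast with it is therefore no result about the members. The lower ones against the score were Tek, Ptprb, Tie1, Flt1, Angpt2, Esam and Mmrn2, 4 of them from the angiopoietin and Tie system. Tek relative to the score was 0.55, 0.55 and 0.38 in controls against -0.11, 0.043 and 0.093 at high load on the log2 scale, and high-load 2 no longer stood near the controls. Flt1 was 0.97, 1.14 and 0.94 in controls against 0.63, 0.85 and 0.54 at high load. The higher ones were Selp, Ecscr, Sox7, Icam1, Fli1 and Sox18. Tek, Tie1, Ptprb, Esam, Mmrn2 and Ecscr are each 1 of the 15 genes of the score, and Fli1 and Icam1 are also expressed by leukocytes, whose markers were higher.

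**Figure D4:**
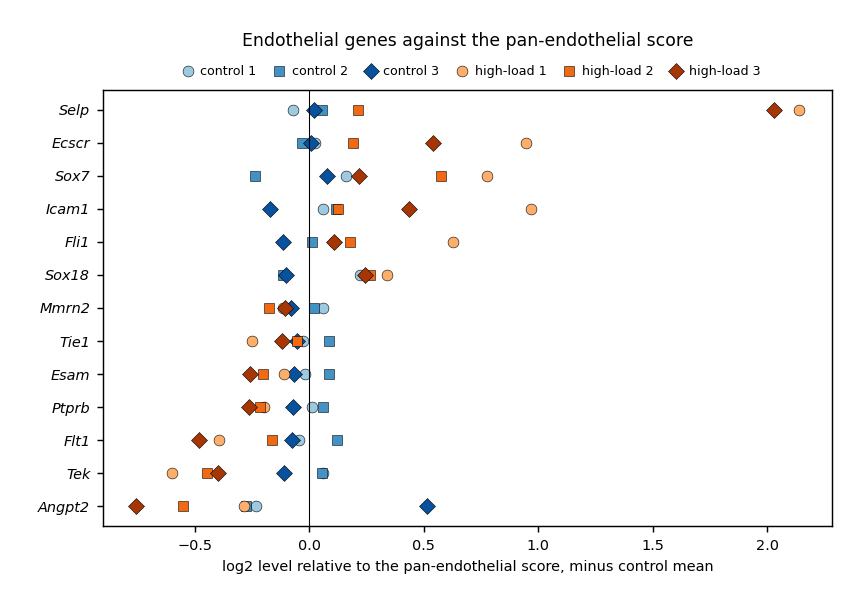
The 13 genes whose groups do not overlap relative to the pan-endothelial score are shown, each point a kidney's log2 level against that score minus the control mean. Angpt2 and Tek lie farthest to the left on average and Selp farthest to the right.

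Adhesion genes of activated endothelium had 4 of 4 fold changes above 1, and 0 passed the adjusted test in edgeR or DESeq2. Of all 15955 tested genes, 8129 had a fold change above 1. Vwf was below every control in high-load 2 and 3, and its log2 fold change of 0.14 was -1.16 without high-load 1. Sele was lowest of the 6 kidneys in high-load 2, at 0.869 CPM. Selp (ENSMUSG00000026580, chromosome 1, 164115264 to 164150026, plus strand) encodes P-selectin, stored in endothelial and platelet granules. It was at 0.721, 0.668 and 0.872 CPM in controls against 2.79, 0.923 and 2.62 CPM at high load, from 13, 11 and 16 control reads against 59, 17 and 47 reads at high load. High-load 2 was just above the controls and the other two far above them (log2 fold change 1.48, SE 0.46, 95% interval 0.39 to 2.57, edgeR adjusted p 0.139). With any 1 kidney left out, the log2 fold change was 1.22 to 1.83, highest without high-load 2. Platelet markers (4 of 6 tested, 1 above a fold change of 1) summed to 14.2 to 16.7 CPM in controls against 12.2 to 13.5 CPM at high load. Itga2b was the largest part of this sum in every kidney, at 10.8, 9.48 and 11.2 CPM in controls against 5.67, 10.1 and 7.90 CPM at high load. The sum thus says little of the other platelet markers. Gp1ba, a platelet receptor subunit, was at 1.25 ± 0.128 CPM in controls against 0.338 ± 0.160 CPM at high load (edgeR adjusted p 0.0967, DESeq2 adjusted p 0.0212). Pf4, a platelet chemokine that macrophages also express, was at 2.02 ± 0.332 CPM in controls against 3.70 ± 1.17 CPM at high load. Gp1ba had 20, 21 and 25 control reads against 11, 4 and 5 at high load. It thus passed the filter on low counts only through the controls, where it is high. The part of platelets in the level of Selp was not tested. Exons of Selp overlap Gm16548 and Gm16587 on the opposite strand, and leukocyte markers were also higher in the same 2 kidneys than in high-load 2.

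Icam1, the leukocyte integrin ligand that tubule cells and leukocytes also express, was at 45.2, 40.2 and 42.7 CPM in controls against 64.0, 48.2 and 44.9 CPM at high load. Its exons overlap Gm47079 on the opposite strand. High-load 1 was highest, high-load 2 was just above the controls and high-load 3 lay among them (log2 fold change 0.30, SE 0.14, edgeR adjusted p 0.256). The tubule injury and leukocyte sums were also highest in high-load 1, and their part in the level of Icam1 was not tested. Sele, encoding E-selectin, had only 15 to 68 reads a kidney and overlapping groups (1.59 ± 0.817 CPM in controls against 2.18 ± 1.20 CPM at high load). Vwf, encoding von Willebrand factor, split the high-load group, at 15.7, 10.3 and 11.1 CPM in controls against 29.7, 5.92 and 5.12 CPM at high load. High-load 1 was above every control and the other two below every control. Its log2 fold change was 0.14, and -1.16 without high-load 1. Outside the list, Vcam1, another leukocyte ligand shared with tubule cells, was at 59.4, 38.8 and 52.2 CPM in controls against 119, 84.7 and 74.9 CPM at high load, with groups that did not overlap (edgeR adjusted p 0.113, DESeq2 adjusted p 0.00718). Of 8 inducers and regulators of these genes, such as Tnf and Relb, 8 had fold changes above 1 and 7 an unadjusted p under 0.05. At that p, 14.0% of all tested genes were higher. Of the 8, 0 passed edgeR's adjusted test and 2 passed that of DESeq2, Tnf and Relb. The list was chosen with earlier results known, and which cells made these transcripts was not tested. Tnf had 17, 8 and 28 control reads against 84, 42 and 49 at high load. It passed the filter on low counts only with the reads of the group where it is high.

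Per kilobase of exon, levels of the members spanned Plvap at 101 ± 15.2 and Eng at 47.0 ± 5.24 CPM per kilobase in controls (n = 3) to Sele at 0.546 ± 0.280 and Selp at 0.171 ± 0.0239. Egfl7 at 19.3 ± 3.16, Esam at 17.4 ± 1.31 and Emcn at 17.2 ± 1.93 came next after Eng and did not differ beyond their spread. Tie1 at 13.3 ± 1.08 and Tek at 11.2 ± 0.965 stood above the VEGF receptors Kdr at 7.71 ± 1.15, Flt1 at 5.64 ± 0.361 and Flt4 at 2.48 ± 0.390. In high-load kidneys Tek was at 6.92 ± 1.45 CPM per kilobase, and Kdr at 5.95 ± 2.41. The defining endothelial markers Pecam1 and Cdh5 had at least 633 reads in every kidney.

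**Figure D5:**
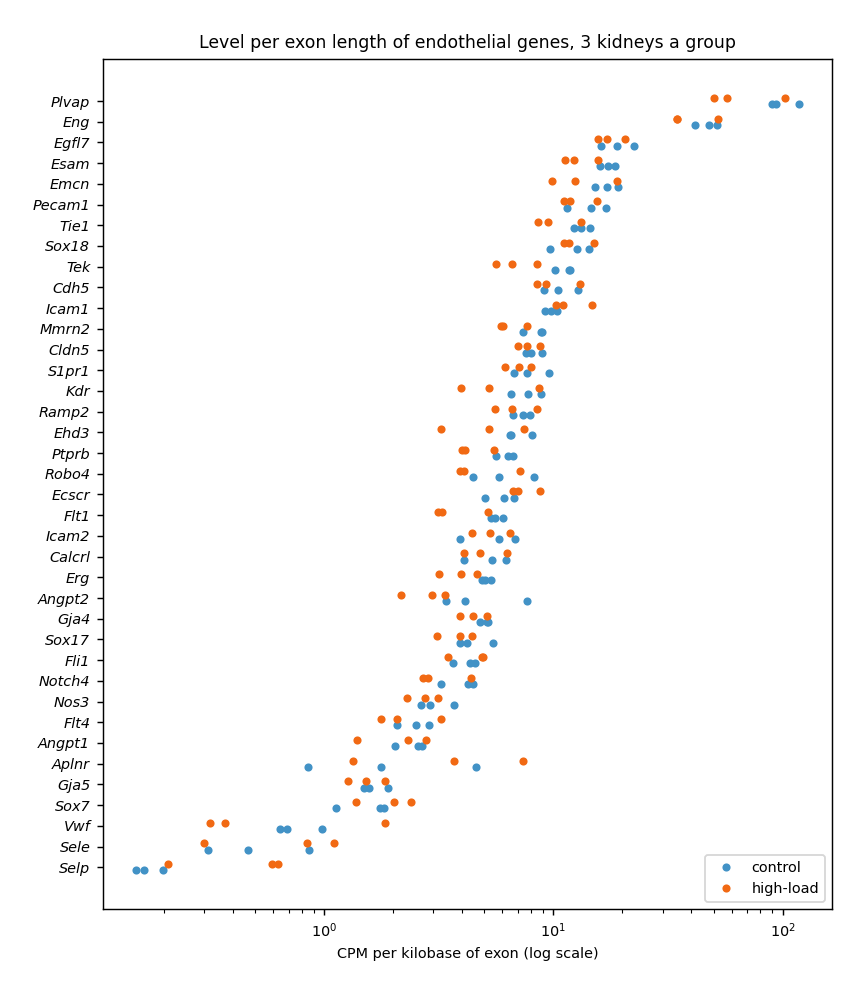
Each row is an endothelial gene and each point a kidney (3 controls in blue, 3 high-load in orange), on a log axis of CPM per kilobase of exon, ordered by the control mean. Plvap and Eng lie highest, and Vwf, Sele and Selp lowest.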

How the data were processed

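The authors deposited 1 table of counts, with Ensembl genes as rows and kidneys as columns. Total counts ranged from 17449270 to 18865997. The submitters' processing notes list mm10, edgeR, featureCounts 2.0.1, HISAT2 2.2.1, fastp 0.23.2 and SAMtools 1.11. The annotation and the handling of strand and multimapping reads were not stated there, and exons of 10 of the 38 members overlap another gene. Groups came from sample titles. Nothing names a batch. Libraries of a group differed by 21.4 to 100.0 in chi-square per degree of freedom, far above counting noise, and were treated as separate animals.

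Genes were tested in R 4.3.3 with edgeR 4.0.16 (minimum count of 10 in filterByExpr, TMM, robust quasi-likelihood fit on group, two-sided F test), with Benjamini-Hochberg adjustment over 15955 genes and checked on simulated counts. DESeq2 1.42.0 and limma-voom (limma 3.58.1) were alternatives, beside other scaling, filters, no robust estimation, a replicate block, load as a number and leaving out each library. An exact permutation test of 3 against 3 cannot give a two-sided p below 0.1, so none was used. SEs and 95% intervals derive from the F statistic. Scores used log2 CPM with a prior count of 2. Symbols, positions and exon lengths came from GENCODE M21 and promoters from RefSeq. All members, and up to 3 genes of each context list by p, could be named; genes that overlap a member were named too. Members and lists were chosen with earlier results of these data known.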

Additional observations from a re-analysis of the deposited data

How the results depend on the processing

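No member passed edgeR's adjusted test under any scaling, filter, block or load setting, nor in limma-voom, and DESeq2 called 1 lower. With 1 library left out, 0 to 6 members were called lower and 0 to 1 higher. The 6 lower were called without high-load 2, where 1.62% of all tested genes were called lower and 3.34% higher. The count of 7 lower at an unadjusted p, beside 10.2% of all tested genes, was 1 with library totals alone in edgeR (6.31%). It was 1 to 14 with a library left out (6.15% to 13.2%). With the replicate block it was 4, and the share over all tested genes is not given for that fit. The count of 1 higher was 0 with at least 1 CPM in 3 libraries, a filter that Selp does not pass. Same-numbered kidneys did not all deviate together (correlations 0.12, -0.18 and 0.049), so no pairing by number was evident. With 3 kidneys a group, such correlations cannot settle whether the numbers pair the kidneys. The median of the members stayed between -0.28 and -0.054. The score differences stayed within 1 SD of the reported values in all settings run. Of 607 values of single members under alternatives, 570 kept their direction and side of the threshold, 8 moved past it and 29, of 12 members, changed sign, 0 of them for a member with an unadjusted p under 0.05. Log2 fold changes that changed sign were, with library totals alone in edgeR, Flt4 0.0382, Cdh5 0.0302, Cldn5 0.0467, Icam2 0.0796, Calcrl 0.0553, Ramp2 0.0175, Gja5 0.0248; with limma-voom, Vwf -0.27; with replicate block, Vwf -0.31; with mutation load as a number, Icam2 0.0112. With 1 library left out, ranges that cross 0 were Icam2 -0.22 to 0.15, Fli1 -0.00654 to 0.23, Sox18 -0.0987 to 0.17, Gja5 -0.24 to 0.0302, Flt4 -0.36 to 0.0941, Cdh5 -0.28 to 0.0634, Egfl7 -0.23 to 0.00873, Calcrl -0.24 to 0.0900, Angpt1 -0.38 to 0.078, Ramp2 -0.26 to 0.0438, Vwf -1.16 to 0.52. The cause was not tested. Selp and Sele had fewer than 100 reads in each kidney, and the largest SEs were those of Aplnr (0.76) and Vwf (0.67).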
